A study of Homo sapiens with 4 samples.

Results

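The ULK complex is the kinase complex that starts autophagy, and AMPK, the AMP-activated protein kinase, acts upstream of it. The 8 genes described here are ULK1, ULK2, ULK3, ATG13, ATG101, RB1CC1, PRKAA1 and PRKAA2. They were picked by gene name among the 31907 names joined over 4 libraries. The rule uses names alone, but the set was put together with results of these libraries known, so the values of the 8 genes are a description and are not independent support for a direction. ULK2 was known to be low with rIL-17B when the set was chosen. Where a library did not list a name, its count was taken as 0. All 8 genes were among the 16361 genes that passed the filter on low counts, and 7 of 8 were counted in all 4 libraries.

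The libraries are RNA-seq of HGC-27, an established human gastric cancer cell line, collected after 48 h with PBS (PBS, 2 libraries) or with 200 ng/ml of recombinant human IL-17B (rIL-17B, 2 libraries). Both groups are labelled as the same line, and the labels name no altered gene. The study used them to look for the mechanisms by which IL-17B acts on cancer stem cell functions. The library protocol in the labels speaks of monocytes, while the samples are labelled HGC-27, and no label says that replicates were separate cultures, so their spread may be technical.

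In mammalian cells ULK1 or ULK2, a pair of related serine/threonine kinases, sits in a complex with the adaptor ATG13, the ATG13-binding protein ATG101 and the scaffold FIP200, which is encoded by RB1CC1. The active complex moves to the site where the autophagosome forms and phosphorylates parts of the Beclin-1 and VPS34 lipid kinase complex. AMPK, whose catalytic α1 and α2 subunits are encoded by PRKAA1 and PRKAA2, senses low energy and phosphorylates ULK1, while mTORC1 phosphorylates ULK1 and ATG13 when nutrients are plentiful. ULK3 is a relative of ULK1 that is best known for acting on GLI factors. Most of this control acts on proteins, which RNA counts do not measure.

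The libraries held between 12888029 and 17555879 counts, so that 3 counts, taken as the smallest level a library can show, correspond to 0.171 to 0.233 CPM (counts scaled to the library total and given per 1e6 counts). rIL-17B replicate 1 stood apart. Its counts differed from those of each other library by a chi-square of 139 to 180 per degree of freedom, against 3.66 between the PBS libraries and 6.54 and 8.71 between rIL-17B replicate 2 and the PBS libraries. A count of 3 or fewer there, beside 100 or more in each of the others, was found for 342 genes, and the same search gave 0 genes for every other library. Marker genes differed in the same library. Summed over 10 mesenchymal markers the level was 55920 and 55000 CPM with PBS, 1525 CPM in rIL-17B replicate 1 and 46870 CPM in rIL-17B replicate 2, and 9 of the 10 were at least 2-fold lower in replicate 1. For 15 epithelial markers the sums were 815, 827, 1884 and 1046 CPM in the same order, of which KRT8 alone made 602, 611, 1457 and 787. TFF1 and TFF3 were at 0 in all libraries, and the defining marker CDH1 was at no more than 0.753 CPM. In rIL-17B replicate 1, 3 markers (KRT8, KRT18 and ELF3) were at least 2-fold higher and 1 (KRT19) at least 2-fold lower. KRT19 had 47 and 43 counts with PBS and 1 and 58 with rIL-17B. The defining epithelial markers CLDN3, ESRP1 and GRHL2 had at most 1 count in any library. Sums over 11 monocyte and macrophage markers were 22.4, 20.6, 8.62 and 23.0 CPM, and 7 of them were at 0 only in rIL-17B replicate 1. Of these, LYZ, FCGR3A and TYROBP had 8 counts or fewer in every library, so a 0 says little for them. CSF1R went the other way, at 3.90, 5.59, 8.14 and 6.15 CPM, and made most of the sum in rIL-17B replicate 1. Sums over 9 neural markers were 387, 576, 48.8 and 283 CPM, with OLIG1, OLIG2 and STMN2 at 0 only in rIL-17B replicate 1. Among single mesenchymal genes, FN1 (fibronectin) was at 33130 and 32460 CPM with PBS, 149 CPM in rIL-17B replicate 1 and 27450 CPM in rIL-17B replicate 2, and COL1A2 was at 5516, 5248, 1.09 and 4699 CPM in the same order. It is in doubt whether the library labelled rIL-17B replicate 1 holds the same cells as the others, and this was not tested. The doubt extends to every value that includes it, among them the ULK2 count of 0 and the calls made without rIL-17B replicate 2. Its label was kept, and the fits and counts for the 8 genes are given with and without it. In bulk RNA, fewer cells of a type and less RNA per cell cannot be told apart.

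The reads of the paralogues ULK1 and ULK2 went opposite ways between the groups, though neither gene was called different over the 4 libraries. The 250 bases upstream of their RefSeq starts are shown so that the letters can be compared. Any part of these letters in the levels was not tested. ULK1 lies on chromosome 12 (chr12:131894651-131923167, plus strand) and ULK2 on chromosome 17 (chr17:19770829-19867936, minus strand) in GENCODE 29 on GRCh38. The upstream windows are chr12:131894372-131894621 and chr17:19867937-19868186 in GRCh38.p14, each written 5′ to 3′ on the strand of its gene. Capitals mark GC boxes, read as GGGCGG or CCGCCC on either strand.
ULK1: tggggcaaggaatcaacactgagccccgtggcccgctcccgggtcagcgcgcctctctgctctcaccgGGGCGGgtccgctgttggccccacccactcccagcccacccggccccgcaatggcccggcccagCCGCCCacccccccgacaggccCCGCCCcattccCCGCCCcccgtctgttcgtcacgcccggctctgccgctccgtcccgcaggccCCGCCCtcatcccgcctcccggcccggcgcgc
ULK2: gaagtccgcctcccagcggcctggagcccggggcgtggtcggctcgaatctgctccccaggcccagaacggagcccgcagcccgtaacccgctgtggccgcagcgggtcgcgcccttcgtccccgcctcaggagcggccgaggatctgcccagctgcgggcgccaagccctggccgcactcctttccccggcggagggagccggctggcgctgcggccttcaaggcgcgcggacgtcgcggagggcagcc
The ULK1 window held 5 GC boxes and the ULK2 window 0. Among all 35116 RefSeq promoters, 42.6% of windows of this length held at least 1. Both windows were rich in CpG, with 28 in ULK1 and 32 in ULK2 against a median of 11, and G and C made up 78.0% and 76.0% of their bases against a median of 58.0%. The palindromes CACGTG (the E-box read by MITF and TFE factors) and TGACGTCA (a cAMP response element), as well as TATAAA or TTTATA, were in neither window, and were in 6.34%, 1.65% and 10.7% of all promoters. A missing match says only that these letters are not in this window. The RefSeq table matched 7 of the 8 genes. The windows upstream of the other 5 matched genes held 8 GC boxes (PRKAA1), 5 (PRKAA2), 3 (ULK3), 2 (ATG101) and 0 (ATG13).

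ULK1 was counted 2251 and 1987 times with PBS and 3004 and 2767 times with rIL-17B, in the order of the replicates. On the library total this was 141.5 and 154.2 CPM in the PBS libraries and 205.5 and 157.6 CPM in the rIL-17B libraries. Both rIL-17B libraries were above both PBS libraries, but replicate 2 passed the higher PBS library by less than the PBS libraries differed from each other. The group means were 148 ± 8.94 CPM (SD, n = 2) with PBS and 182 ± 33.9 CPM (SD, n = 2) with rIL-17B. The quasi-likelihood test of edgeR over all genes gave a log2 fold change of 0.22 (SE 0.14, Benjamini-Hochberg adjusted p = 0.661). Without rIL-17B replicate 1 it was 0.09 (SE 0.09, adjusted p = 0.735).

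ULK2 went the other way. It had 239 and 227 counts with PBS, 0 counts in rIL-17B replicate 1 and 183 counts in rIL-17B replicate 2. These are levels of 15.03 and 17.61 CPM in the PBS libraries and 0 and 10.4 CPM in the rIL-17B libraries. Both rIL-17B libraries were below both PBS libraries, and the rIL-17B libraries differed from each other more than replicate 2 differed from PBS. At the PBS level rIL-17B replicate 1 would have held 238.5 counts. Set against the floor of 3 counts per library, its level was at least 79.5-fold lower than the PBS mean and at least 50.8-fold lower than in rIL-17B replicate 2. Floors and intervals refer to reads. PCR copies of a molecule were counted as separate reads, so neither covers the counting error of molecules or the spread between libraries. The folds above are therefore bounds on reads and not on RNA level.

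In rIL-17B replicate 2 the ULK2 level differed from the PBS mean by -36.1%. Over all 4 libraries the edgeR log2 fold change of ULK2 was -1.65 (SE 2.09, adjusted p = 0.72), with the spread between the rIL-17B libraries larger than the difference between groups. Without rIL-17B replicate 1 the log2 fold change was -0.65 (SE 0.18, adjusted p = 0.0153), which passed the threshold of 0.05. That fit rests on 1 rIL-17B library, which is assumed to vary like the PBS pair, and 2.95% of the 17103 genes it tested passed (504 genes, 110 higher and 394 lower with rIL-17B). In the same fit the neural markers MAP2, NES, OLIG1 and OLIG2 were also lower, with log2 fold changes of -0.60, -0.80, -1.08 and -0.86, as were the mesenchymal markers COL1A1, FN1 and SPARC, at -0.26, -0.26 and -0.25, each past the threshold. The epithelial markers KRT8 and KRT18 passed it in the other direction, with log2 fold changes of 0.37 and 0.30 (adjusted p = 0.00034 and 0.0214). Of the markers that did not pass, the mesenchymal S100A4 had a log2 fold change of 0.22 and the neural STMN2 one of 0.02. The part of these markers in the ULK2 difference was not tested.

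ULK3 was counted 876, 788, 1327 and 1101 times in PBS replicates 1 and 2 and rIL-17B replicates 1 and 2. The levels were 55.1, 61.1, 90.8 and 62.7 CPM. The rIL-17B libraries were again above both PBS libraries, with replicate 2 only just above the higher of them. The edgeR log2 fold change was 0.32 (SE 0.18, adjusted p = 0.661), and 0.11 (SE 0.10, adjusted p = 0.726) without rIL-17B replicate 1.

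**Figure D1:**
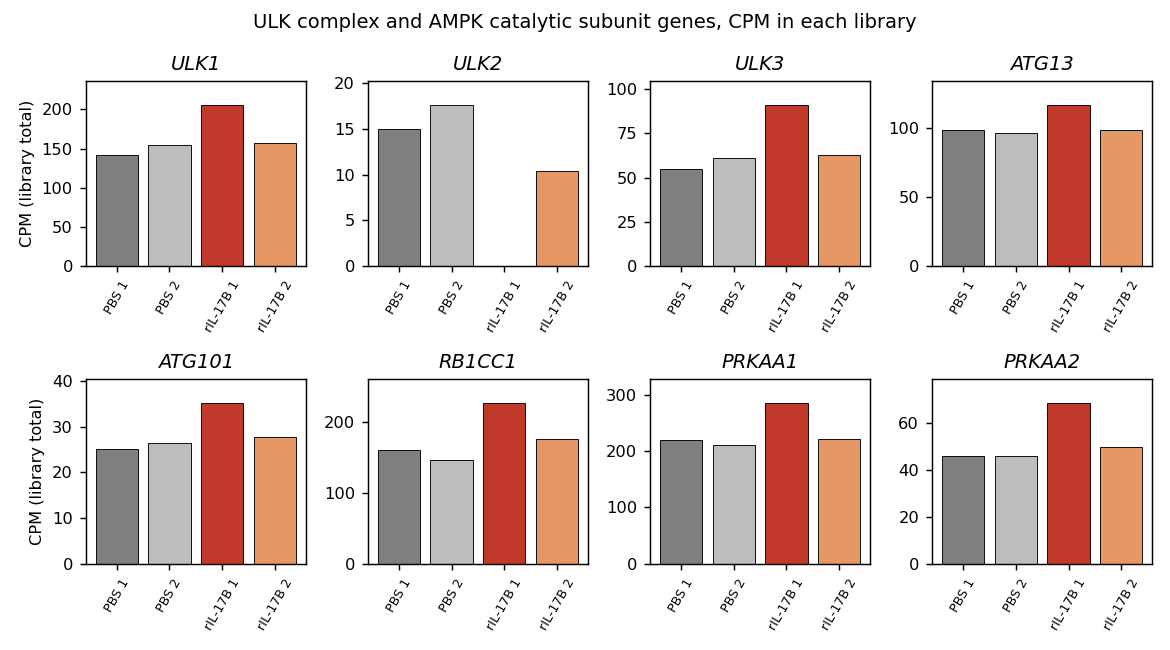
Level of each of the 8 genes (vertical axes, CPM on the library total, each from 0) in the 2 PBS libraries (grey) and the 2 rIL-17B libraries (red and orange), 1 bar per library. ULK2 has no bar in rIL-17B replicate 1, where its count was 0, while the other 7 genes have their highest bar there.

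Among the partners of the kinases, RB1CC1, the scaffold of the complex, had 2560 and 1887 PBS counts against 3328 and 3106 in the rIL-17B libraries. Its levels were 161 and 146 CPM in the PBS libraries and 228 and 177 CPM in the rIL-17B libraries, and the groups did not overlap. The means were 154 ± 10.3 CPM (SD, n = 2) and 202 ± 35.9 CPM (SD, n = 2). RB1CC1 had the smallest unadjusted p of the 8 genes in edgeR's test, 0.0914, with a log2 fold change of 0.32 (SE 0.14, adjusted p = 0.661). Without rIL-17B replicate 1 the log2 fold change was 0.20 (SE 0.09, adjusted p = 0.251).

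ATG13, which links the kinases to FIP200, was the gene that differed least. It had 1568 and 1243 counts with PBS and 1699 and 1729 with rIL-17B, or 98.6, 96.5, 116 and 98.5 CPM in PBS replicates 1 and 2 and rIL-17B replicates 1 and 2. Its level in rIL-17B replicate 2 lay between the PBS libraries, so the groups overlapped. The log2 fold change was 0.06 (SE 0.10, adjusted p = 0.753), and 0.01 (SE 0.09, adjusted p = 0.982) without rIL-17B replicate 1. ATG13 shares 329 bases of exon, 4.7% of its own, with HARBI1 on the opposite strand, which had 84, 43, 65 and 84 counts. Whether the counting used strand is not given in the sources used here, so reads in the shared bases could belong to either.

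ATG101, which stabilizes ATG13, was counted 398 and 341 times with PBS and 514 and 487 times with rIL-17B. The levels were 25.02, 26.46, 35.17 and 27.74 CPM, and both rIL-17B libraries were above both PBS libraries. The log2 fold change was 0.21 (SE 0.14, adjusted p = 0.661), and 0.11 (SE 0.13, adjusted p = 0.813) without rIL-17B replicate 1. An antisense gene, AC025259.1, covers 19.2% of its exons and had 1 count in all 4 libraries together.

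PRKAA1, the AMPK α1 gene, was the most highly counted of the 8, with 3492 and 2723 counts with PBS and 4168 and 3895 with rIL-17B. This was 220 and 211 CPM in the PBS libraries and 285 and 222 CPM in the rIL-17B libraries, where replicate 2 was only just above PBS replicate 1. The log2 fold change was 0.16 (SE 0.13, adjusted p = 0.662), and 0.04 (SE 0.09, adjusted p = 0.912) without rIL-17B replicate 1. PRKAA2, the α2 gene, had 733 and 596 counts with PBS and 1004 and 873 with rIL-17B. Its PBS libraries were close to each other, at 46.1 and 46.2 CPM, and the rIL-17B libraries were at 68.7 and 49.7 CPM. Its log2 fold change was 0.28 (SE 0.15, adjusted p = 0.661), and 0.10 (SE 0.11, adjusted p = 0.763) without rIL-17B replicate 1.

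Taking the 8 genes as a list, both rIL-17B libraries were above both PBS libraries for 6, below for 1 (ULK2) and overlapped for 1 (ATG13). Over all genes tested, the rIL-17B libraries were above for 31.5% and below for 27.5%. With TMM scaling, which corrects for a few abundant genes taking a changing share of the reads, the counts for the 8 genes were again 6 and 1, against 28.5% and 30.4% of all genes. With rIL-17B replicate 2 alone set against both PBS libraries, 6 were above and 1 below, against 37.0% and 36.1% of all genes. In edgeR's test 0 of the 8 genes passed the adjusted threshold and 0 had an unadjusted p under 0.05, while 0% and 1.38% of all genes did so. DESeq2 also called 0 genes. The median log2 fold change was 0.22 over the 8 genes and -0.03 over all genes tested, with 7 higher and 1 lower. An exact permutation test of 2 against 2 libraries has a smallest possible two-sided p of 0.33, and none was run for single genes.

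**Figure D2:**
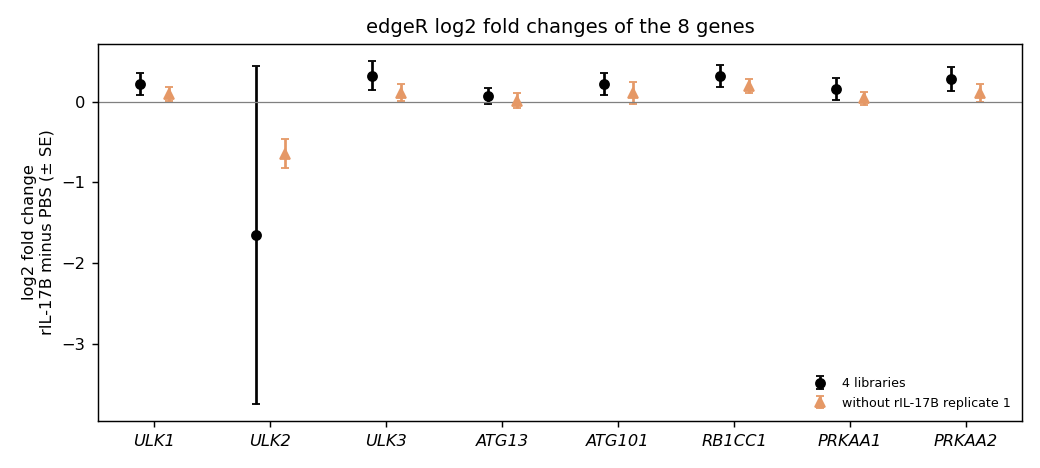
Log2 fold change of rIL-17B against PBS from edgeR for each gene (vertical axis, error bars are the SE), with all 4 libraries (black circles) and without rIL-17B replicate 1 (orange triangles). For the 7 genes other than ULK2 the values with all libraries run from 0.06 to 0.32 and are nearer 0 without that library, and the error bar of ULK2 shrinks from 2.09 to 0.18.

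The 2 rIL-17B libraries gave differences of unequal size. On library totals, the 7 genes other than ULK2 were above the PBS mean in rIL-17B replicate 1 by 19.2% (ATG13) to 56.2% (ULK3). RB1CC1 was at 48.2% and PRKAA2 at 48.8%. In rIL-17B replicate 2 the 7 genes were above it by 0.993% (ATG13) to 15.1% (RB1CC1). With TMM scaling the differences in rIL-17B replicate 1 were smaller. ATG13 was then at 101.8 and 98.45 CPM with PBS and 108.6 CPM in rIL-17B replicate 1. ULK3 was at 56.9, 62.41 and 84.79 CPM in the same order. The order was not kept exactly, since ULK3 led in replicate 1 and RB1CC1 in replicate 2, but ATG13 was lowest of the 7 in both. On the log2 scale (0.5 CPM added), the 8 genes had a median difference from PBS of 0.46 in replicate 1 and 0.10 in replicate 2. Over all genes tested it was 0.09 and 0.0029, where rises and falls cancel. Taken without sign, the median difference over all genes tested was 0.48 in replicate 1 and 0.14 in replicate 2. Differences of the size seen in the 8 genes were thus common in both libraries. ULK2 was the 1 gene of the 8 that was at least 2-fold below the PBS mean in rIL-17B replicate 1, as were 18.6% of all genes tested. None of the 8 was at least 2-fold above it there (0 of 8, against 2.61% of all genes), and none was at least 2-fold below it in replicate 2 (0 of 8, against 0.575%).

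Leaving out the other treated library changed the calls most. Without rIL-17B replicate 2, 7 of the 8 genes passed the threshold, 6 of them higher and ULK2 lower, and ATG13 did not (adjusted p = 0.282 in edgeR's test). In that fit 55.1% of all genes tested passed, so that the share of the 8 genes has a high background. The fit compares rIL-17B replicate 1 alone with the PBS libraries, and it is the library whose marker genes differed. The marker sums given above moved with these calls, and their part in them was not tested.

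Levels of different genes were compared per kilobase of annotated exon. With PBS, PRKAA1 was highest at 32.8 ± 0.892 CPM per kb (SD, n = 2), followed by RB1CC1 at 20.2 ± 1.35, ULK1 at 19.4 ± 1.18, ULK3 at 16.5 ± 1.22, ATG13 at 13.9 ± 0.216, ATG101 at 8.05 ± 0.317, PRKAA2 at 4.94 ± 0.0119 and ULK2 at 1.66 ± 0.186. RB1CC1 and ULK1 were not separate in PBS, where each was the higher in 1 library. Every other neighbour in this order was the higher of its pair in all 4 libraries. The order depends on the length taken. With the length of the longest annotated transcript 4 of the 8 genes kept their rank with PBS. PRKAA1 stayed first and ATG101, PRKAA2 and ULK2 stayed last, while RB1CC1 and ULK1 changed places, as did ULK3 and ATG13. How evenly the reads covered the length of each transcript was not tested.

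**Figure D3:**
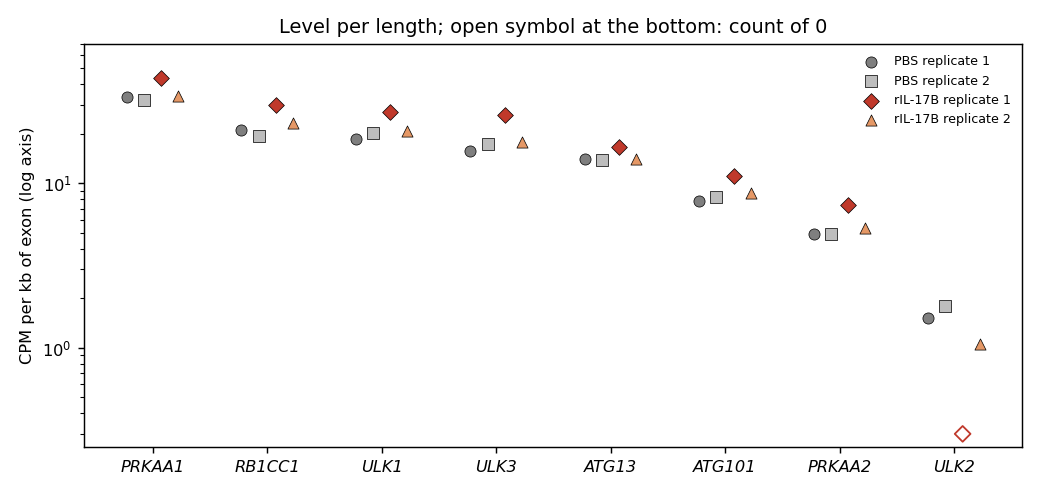
Level of each gene in CPM per kilobase of exon (vertical log axis) in the 4 libraries, with genes ordered by their PBS mean from 32.8 (PRKAA1) to 1.66 (ULK2). The open symbol at the lower edge is ULK2 in rIL-17B replicate 1 with a count of 0, and has no position on the axis.

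The pairs of paralogues differed in how evenly they were used. Per kilobase, ULK1 was 12.2 and 11.3 times the level of ULK2 in the PBS libraries and 19.6 times in rIL-17B replicate 2. In rIL-17B replicate 1, with ULK2 set at 3 counts, it was at least 1295 times. As a share of the reads of both genes, ULK2 took 9.60% (95% Wilson interval 8.503 to 10.8%) and 10.25% (9.06 to 11.6%) with PBS. It took 6.20% (5.39 to 7.13%) in rIL-17B replicate 2 and 0% (0 to 0.128%) in rIL-17B replicate 1. These intervals treat every read as independent. They cover neither PCR copies nor the spread between libraries, so they cannot show a difference between the groups. PRKAA1 to PRKAA2 was more even over the libraries, at 6.79 and 6.51 with PBS and 5.92 and 6.36 with rIL-17B per kilobase. PRKAA2 took 17.35% and 17.96% of the reads of the pair with PBS and 19.4% and 18.3% with rIL-17B, and the interval of each library overlapped that of at least 1 other.

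Within the complex, RB1CC1 was 1.501 and 1.396 times the level of ATG13 per kilobase with PBS and 1.80 and 1.65 times with rIL-17B. ATG13 took 37.98% (36.5 to 39.5%) and 39.7% (38.01 to 41.4%) of the reads of that pair with PBS, and 33.8% (32.5 to 35.1%) and 35.8% (34.4 to 37.1%) with rIL-17B. The values did not overlap between groups, but the same held for every other pair compared here. How often pairs of genes separate in this way was not computed. The interval of rIL-17B replicate 2 overlapped that of PBS replicate 1. ATG13 to ATG101 was 1.80 and 1.67 with PBS and 1.51 and 1.62 with rIL-17B. ULK1 to ULK3 was 1.19 and 1.17 with PBS and 1.05 and 1.16 with rIL-17B.

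The 0 count of ULK2 in rIL-17B replicate 1 was not shared by its neighbours on chromosome 17. Of 29 counted genes within 500 kb, 10 had at least 100 counts in each of the other 3 libraries, and 0 of those 10 had 3 counts or fewer in rIL-17B replicate 1. Over the whole series 342 genes met this rule, beside 16361 tested. Their share among genes counted as highly was not computed, so 0 of 10 is a description and sets no contrast with other regions. AKAP10, which encodes a protein kinase A anchor, had 676 and 566 counts with PBS and 819 and 769 with rIL-17B. ALDH3A2, which encodes a fatty aldehyde dehydrogenase, had 1751, 1377, 2170 and 1908 counts in the same order. The lowest count among the 10 in rIL-17B replicate 1 was 95, for SLC47A1, and the gene with the largest shortfall there was MFAP4, a matrix-associated protein gene, with 371 and 376 counts with PBS and 129 and 409 with rIL-17B. SLC47A1 and MFAP4 were singled out after their values were seen. GENCODE 29 places no exon of another gene over the exons of ULK2.

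**Figure D4:**
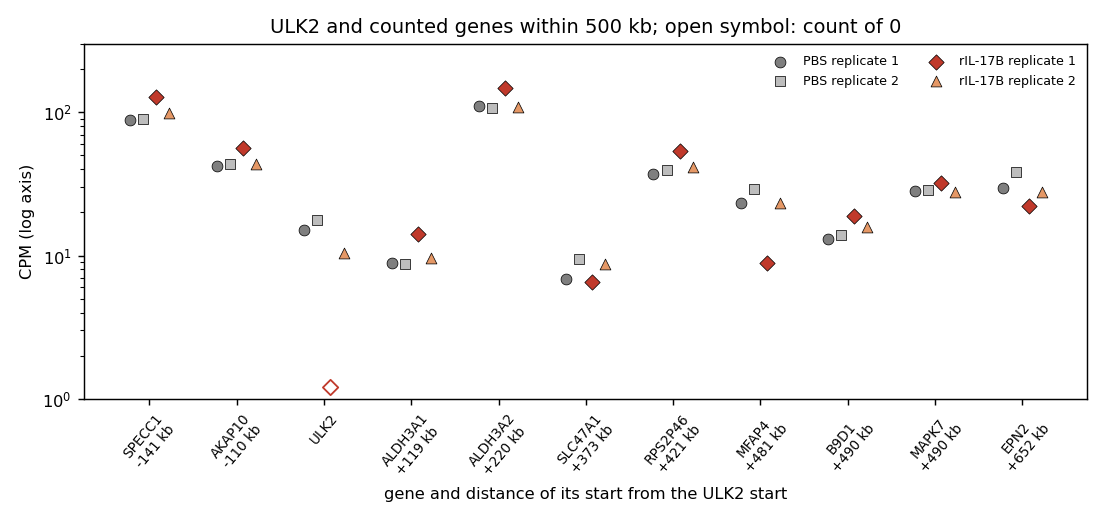
CPM (vertical log axis) in the 4 libraries for ULK2 and the 10 genes within 500 kb that had at least 100 counts in each library other than rIL-17B replicate 1, ordered by the distance of their start from the ULK2 start in kb (positive is downstream, and a long gene may start beyond the window). All 10 neighbours have filled symbols in every library, and ULK2 has an open symbol, a count of 0, in rIL-17B replicate 1.

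ULK2 was the 1 gene of the 8 whose level spanned more than 1 on the log2 scale over the libraries. Among the genes tested, 3 had a pattern over the 4 libraries nearest to it, by the distance between log2 values (0.5 CPM added) taken from the PBS mean. DRAXIN, an axon guidance factor, had 277 and 288 counts with PBS and 2 and 220 with rIL-17B (distance 0.12). ABAT, the GABA transaminase gene, had 242, 235, 1 and 178 counts (distance 0.17). ZNF528, a zinc finger gene, had 262, 246, 0 and 219 counts (distance 0.18). The 3 genes were chosen for this likeness over 4 libraries, so it is a description.

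The other subunits of AMPK were 4 tested genes of 5, with PRKAG3 under the filter. In edgeR's test 0 passed the threshold in either direction, and the median log2 fold change was -0.21. PRKAG1, the common γ1 subunit, had 969 and 743 counts with PBS and 1076 and 1080 with rIL-17B (log2 fold change 0.11). PRKAB2, the β2 subunit, had a log2 fold change of -0.28. PRKAG2, the γ2 subunit, had 303 and 253 counts with PBS and 94 and 244 with rIL-17B. It was the 1 gene of the 4 at least 2-fold lower in rIL-17B replicate 1, as were 18.6% of all genes tested. In replicate 2 it was at 13.9 CPM against 19.1 and 19.6 CPM with PBS. Its log2 fold change was -0.97 (SE 0.48, adjusted p = 0.661), and -0.48 without rIL-17B replicate 1 (adjusted p = 0.0761).

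Of the kinases that activate AMPK and their partners, 10 were tested, 0 passed and the median was -0.07. CAMKK1 and CAMKK2, the calcium-dependent kinases of AMPK, differed in direction. CAMKK1 had 313 and 248 counts with PBS and 570 and 428 with rIL-17B (log2 fold change 0.62, SE 0.23, adjusted p = 0.661), while CAMKK2 had a log2 fold change of -0.24. STK11, the LKB1 gene, and STRADB, which encodes a pseudokinase partner, were at least 2-fold lower in rIL-17B replicate 1. This was 2 of 10, against 18.6% of all genes tested. TAB2 and CAB39, the list's most highly counted genes, had log2 fold changes of -0.12 and -0.02.

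Among 14 kinases related to AMPK, 0 passed over the 4 libraries and the median was -0.15. SIK1, a salt-inducible kinase, was named for the smallest p of this list. It had 615 and 474 counts with PBS and 1081 and 874 with rIL-17B. In edgeR's test its unadjusted p was 0.0339 and its log2 fold change 0.63 (SE 0.19, adjusted p = 0.661). Over all genes tested, 1.38% had an unadjusted p under 0.05. Without rIL-17B replicate 1, a fit that rests on 1 rIL-17B library, the log2 fold change of SIK1 was 0.39. The log2 fold changes of MELK, SIK2 and MARK3 were 0.58, 0.41 and -0.14. MARK4, BRSK1 and HUNK were at least 2-fold lower in rIL-17B replicate 1, HUNK at 0 (3 of 14, against 18.6% of all genes tested).

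The list of AMPK substrates held 16 tested genes, with 0 past the threshold and a median of 0.05. MFF, a mitochondrial fission factor, had 2362 and 1774 counts with PBS and 3154 and 2858 with rIL-17B (log2 fold change 0.32, adjusted p = 0.661). SREBF1, a regulator of lipid synthesis, had a log2 fold change of -0.04. LIPE, hormone-sensitive lipase, was barely counted (4 to 22 reads) and its log2 fold change was -1.55 (SE 0.65, adjusted p = 0.661). For 5 subunits of mTORC1, which opposes ULK1, 0 passed and the median was 0.18. MTOR and MLST8 had log2 fold changes of 0.33 and 0.41 and AKT1S1 of -0.06. DEPTOR, an inhibitor in the complex, was at least 2-fold lower in rIL-17B replicate 1 (1 of 5, against 18.6% of all genes tested).

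Downstream of the kinases, 8 of 9 genes of the VPS34 complex and the ATG9 branch were tested (not ATG9B), 0 passed and the median was 0.03. ATG9A, a lipid scramblase, PIK3R4, a VPS34 partner, and AMBRA1 had log2 fold changes of 0.23, 0.26 and 0.35. PIK3C3, the VPS34 kinase itself, had 618 and 521 counts with PBS and 420 and 632 with rIL-17B (log2 fold change -0.35, adjusted p = 0.661). Of 7 cargo receptors that bind FIP200, 0 passed and the median was -0.12. SQSTM1 (p62), NBR1, CALCOCO2 and TNIP1 had log2 fold changes of -0.17, -0.12, 0.13 and -0.26. OPTN was at least 2-fold lower in rIL-17B replicate 1 (1 of 7, against 18.6% of all genes tested).

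Among 12 regulators of ULK1, 0 passed and the median was 0.17. The chaperone genes HSP90AA1 and HSP90AB1 were the most highly counted, with log2 fold changes of 0.24 and 0.29, and SMCR8, a partner of C9orf72, had a log2 fold change of 0.34. Of 10 transcription factors of autophagy genes, 0 passed and the median was -0.17. ATF4 and TFE3 had log2 fold changes of -0.17 and -0.21, and E2F1 and MITF of 0.47 and 0.61. In rIL-17B replicate 1, MITF was at least 2-fold higher (1 of 10, against 2.61% of all genes tested). DDIT3 was at least 2-fold lower there (1 of 10, against 18.6%). The fit without rIL-17B replicate 1 rests on 1 rIL-17B library, and its calls over these pathway lists are not compared.

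The list of other kinases named for the ULK fold held 2 genes, ULK4, a pseudokinase, and STK36, of which 0 passed (median 0.26). ULK4 had 91 and 74 counts with PBS and 152 and 150 with rIL-17B, or 5.72, 5.74, 10.4 and 8.54 CPM. Both rIL-17B libraries were above both PBS libraries, as for 31.5% of all genes tested. In edgeR's test its unadjusted p was 0.0466 and its log2 fold change 0.65 (SE 0.22, adjusted p = 0.661). Over all genes tested, 1.38% had an unadjusted p under 0.05. Without rIL-17B replicate 1, in a fit with 1 rIL-17B library, the log2 fold change of ULK4 was 0.57. STK36 had a log2 fold change of -0.12. IL17RB, which encodes the receptor of IL-17B, had 86 and 61 counts with PBS and 96 and 106 with rIL-17B, or 4.73 to 6.57 CPM in the 4 libraries, with a log2 fold change of 0.24 (SE 0.24, adjusted p = 0.68) and of 0.24 without rIL-17B replicate 1.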

How the data were processed

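Gene counts of 4 RNA-seq libraries of HGC-27 cells were analysed, 2 with PBS and 2 with rIL-17B, grouped by the treatment labels. The values the authors deposited are raw read counts per gene name, with no normalization. Per the labels, libraries were made by Smart-seq2 from an oligo-dT primer with PCR amplification, which favours polyadenylated RNA and counts PCR copies as reads. The submitters' processing notes name Bowtie2 2.2.3, HISAT2 2.1.0, TopHat2, HTSeq 0.6.0 and hg38, with no role or order. The annotation and strand setting are not given in the sources used here. Repeated entries of a name, which held equal counts, were used once, and 22 to 25 entries per library with date-like names (at most 0.244% of counts) were left out.

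Levels are CPM on library totals, per kilobase of union exon (GENCODE 29) between genes. The test was that of edgeR 4.0.16 (R 4.3.3, TMM, factors 0.97 to 1.07, filterByExpr, group only, quasi-likelihood F test, Benjamini-Hochberg over 16361 genes, threshold 0.05), with the SE taken as the size of the log2 fold change divided by the square root of F, after a test on simulated data. Scripts ran in Python 3.11.15. The members and lists were chosen with earlier results of these data known. The text names the 8 genes, the 2 most highly counted and the 2 with the smallest p of each list, the 3 genes nearest to a gene spanning over 1 on the log2 scale, and IL17RB. Genes that were at least 2-fold apart in rIL-17B replicate 1, markers and neighbours of ULK2 are named beside their counts. Alternatives were DESeq2 1.42.0, other scalings and filters, a replicate block, a threshold of 0.1, transcript length, deposited totals, and leaving out each library. A neural marker of the planned list is not reported here.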

Additional observations from a re-analysis of the deposited data

How the results depend on the processing

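No log2 fold change of the 8 genes changed direction under any alternative. Of these values 71 stayed on their side of the threshold, and the other 8 came from leaving out an rIL-17B library. Leaving out each library in turn gave 0 to 9489 genes past the adjusted threshold and 0 to 7 of the 8 genes, against 0 and 0 with all libraries. Without rIL-17B replicate 1 it was 504 genes and 1 of the 8, without rIL-17B replicate 2 it was 9489 and 7, and without either PBS library 0 and 0. With 1 library in a group, its spread was assumed to be that of the other group. Upper-quartile scaling, no scaling beyond the library total, no filter, at least 10 counts in every library (ULK2 was not tested there), a threshold of 0.1 and DESeq2 gave 0 genes each, with 190, 161, 879, 462, 226 and 457 genes at an unadjusted p under 0.05. The same-numbered libraries' deviations from their group means correlated by 0.080. With so few libraries, and with rIL-17B replicate 1 apart from the others, this cannot show whether the numbers pair them. With a replicate block 0 genes passed (173 at an unadjusted p under 0.05) and the log2 fold change of ULK2 was -3.73. With the longest transcript as length, 4 of the 8 genes kept their rank by level, the mean PBS ratio of ULK1 to ULK2 was 10.28 against 11.75, and that of PRKAA1 to PRKAA2 was 8.573 against 6.651. Totals as deposited moved CPM by at most 1.59%. The count of genes with rIL-17B replicate 2 alone outside the PBS libraries was added after the data were seen. At the depth of rIL-17B replicate 1 the PBS level of ULK2 would have given 238.5 counts, and the reason for its count of 0 was not tested. Depth is a limit for LIPE at 4 to 22 counts.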
